A study of Homo sapiens with 8 samples.

Results

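The genes of glycolysis and of the cellular response to low oxygen were followed in H1299, a long-used cell line from a human lung carcinoma of the non-small cell type, after knockdown of the transcription factor USF1 or of the glucuronosyltransferase UGT1A3. The set was a fixed list of 43 genes, chosen by function but with earlier results of these data known. Every probe set annotated with exactly 1 of these symbols was taken. Of the 43 genes 39 had such a probe set, with 135 probe sets in all, among 18132 genes on the arrays. SLC2A3, SLC16A1, SLC16A3 and CA9 had none. The list held 17 glycolytic enzymes, 8 regulators and transporters of the pathway, 6 genes of oxygen sensing and 12 other hypoxia-response genes. RNA was read on 8 one-colour Affymetrix arrays in 2 separate sets. The USF1 set compared 3 arrays of cells transfected with short hairpin RNA (shRNA) against USF1 with 3 arrays of its control. The UGT1A3 set compared 1 array of cells transfected with shRNA against UGT1A3 with 1 control array. All groups shared the H1299 background, and the labels gave neither the content of the control transfections, the time after transfection nor the oxygen level. No array was labelled as hypoxic.

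Glycolysis splits glucose into pyruvate in the cytosol, and tumour cells reduce much of that pyruvate to lactate and export it. When oxygen falls, the prolyl hydroxylases of the EGLN family stop marking the HIF alpha subunits for destruction by VHL, and the stabilised factors switch on glucose transporters, glycolytic enzymes, angiogenic factors and mitophagy receptors. HIF binds a short core within the hypoxia response element, and the ACGTG form of that core lies inside the palindromic E-box CACGTG, to which USF1, USF2 and MYC with MAX bind. Lung carcinoma cells commonly express the glycolytic enzymes at high levels even when oxygen is plentiful.

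USF1, measured first as a check of the labels, gave log2 intensities of 6.31, 6.55 and 6.42 on its control arrays. After knockdown its only probe set gave 6.06, 5.88 and 6.13, without overlap. USF1 fell by 0.40 (SE 0.08, limma adjusted p = 0.0082), to 75.6% of its control level. The relative USF2 differed by -0.02 (SE 0.03, limma adjusted p = 0.66). No probe set was specific to UGT1A3, and the 9 that it shared with other UGT1A genes differed by -0.45 to 0.06 in the UGT1A3 pair, at control readings of 2.63 to 4.56. These lay under the limit of 4.76 below which a probe set of that pair was taken as dim, so the UGT1A3 knockdown could not be checked here. The limit was 5.63 in the USF1 set. Array medians were 6.53 to 6.55 in the USF1 set and 5.59 and 5.63 in the UGT1A3 set, and differences were formed only within a set. The keratins KRT8 and KRT18 and the filament protein VIM were read well above the limits. Of 15 listed markers of fibroblasts, leukocytes, endothelium and red cells 13 had a probe set, 5 lay above the limit in the USF1 set and 0 passed (limma). Those 5 were the leukocyte marker CD68, at a control mean of 9.46, HBB at 6.19, and PDGFRB, PECAM1 and VWF at 5.64 to 5.90. CD68 thus read above KRT8, at 9.07, which rose by 0.25 (SE 0.04, limma adjusted p = 0.0020). KRT18 and VIM did not pass (limma).

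After USF1 knockdown 13 of 17 glycolytic enzymes stayed close to their control level and did not pass the test, while hexokinase 2, the kinase PDK1, the angiogenic factor VEGFA and the secreted glycoprotein STC2 fell and the mitophagy receptor BNIP3L rose (limma). Of the 39 genes, 36 were bright enough to be tested, and ARNT2, EGLN3 and MXRA5 were not. In all 12 of the 36 passed an adjusted p of 0.05, 4 upward and 8 downward, or 33.3%, against 40.7% of all 11448 genes tested. Over all genes 22.0% rose and 18.7% fell, so calls among the listed genes were no more frequent than on the array as a whole. Their median difference was -0.02, beside 0.01 for all genes. Values are of bulk RNA, in which fewer cells of a kind and less RNA per cell cannot be told apart. The labels do not say that replicates came from separate cultures, so p-values measure the spread between these arrays only.

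**Figure D1:**
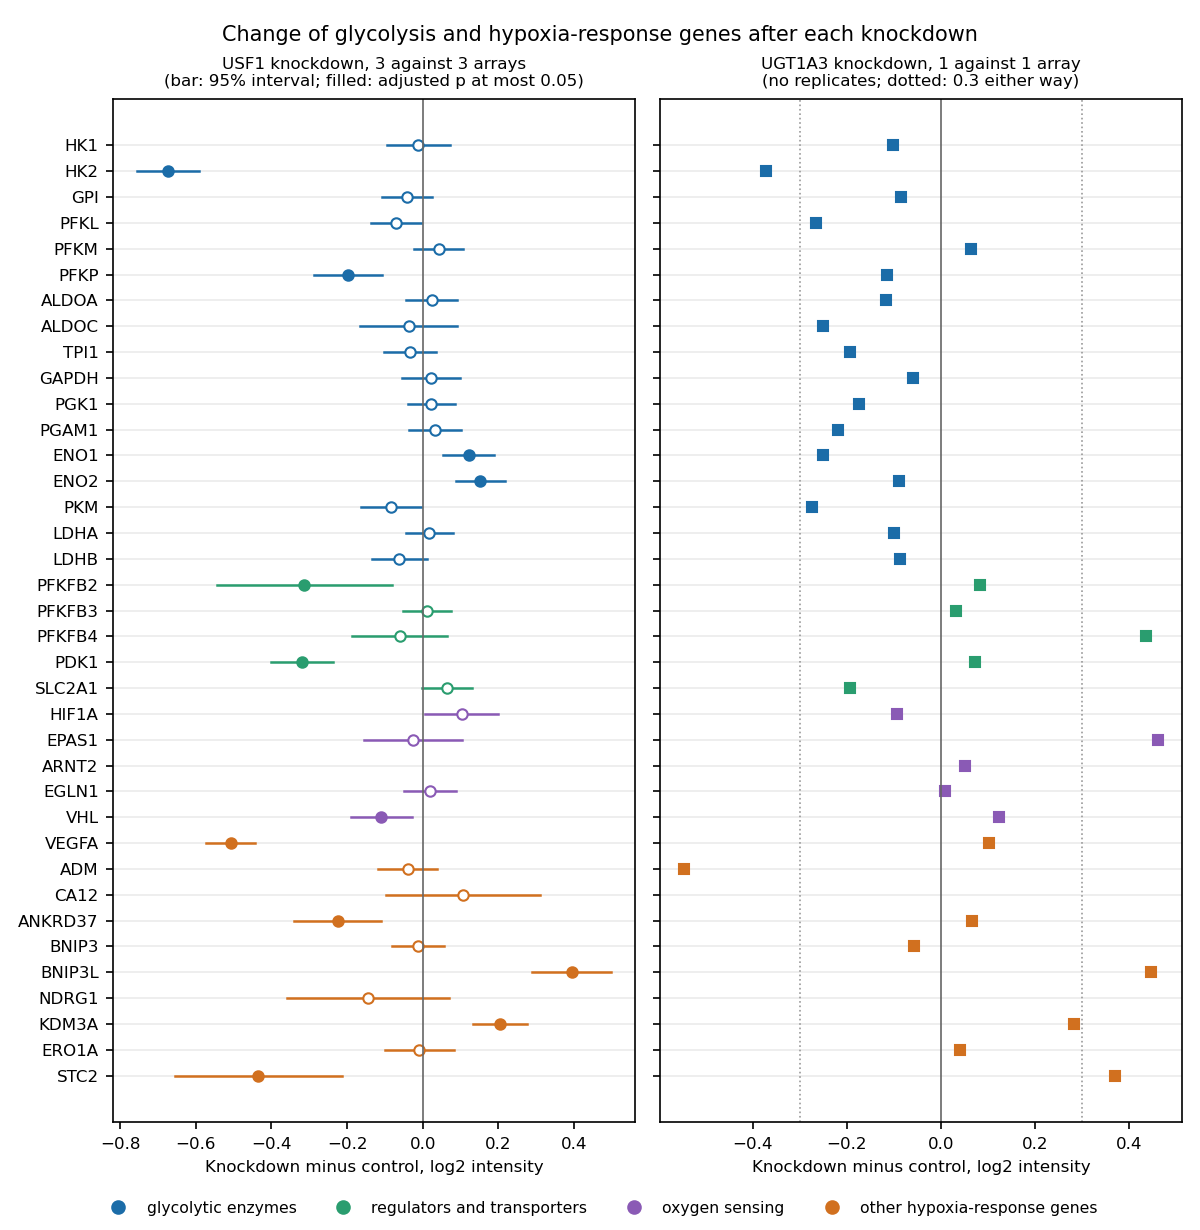
Knockdown minus control in log2 intensity for each measured gene, after USF1 knockdown on the left (mean difference of 3 against 3 arrays, with its 95% interval) and in the UGT1A3 pair on the right (1 array against 1), coloured by class. On the left HK2 lies farthest down at -0.67 and BNIP3L farthest up at 0.39, and most enzymes lie close to 0. The intervals of PFKL and PKM, which did not pass, end just below 0. On the right 16 of 17 enzymes lie below 0.

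Glucose is trapped in the cell by hexokinase, and the 2 hexokinases of the list gave different values. The control arrays of HK2, the inducible isoform of many tumours, gave 9.32, 9.35 and 9.34, and its knockdown arrays 8.67, 8.71 and 8.61. Every knockdown array lay below every control, and HK2 fell by 0.67 (SE 0.03, limma adjusted p = 5.5e-05), to 62.7% of its control level. Its second probe set fell by 0.45 (SE 0.08, limma adjusted p = 0.0042 over all bright probe sets). For HK1, the isoform expressed in most tissues, controls read 10.19, 10.26 and 10.26 and knockdown arrays 10.25, 10.24 and 10.18. Its groups overlapped, with a difference of -0.01 (SE 0.04, limma adjusted p = 0.83), and its 4 probe sets gave -0.05 to -0.01.

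At the committed step of the pathway stand the phosphofructokinases. The platelet isoform PFKP went from 10.94, 11.01 and 10.94 on the control arrays to 10.82, 10.73 and 10.75 after knockdown. It fell by 0.20 (SE 0.04, limma adjusted p = 0.0064), without overlap, to 87.2% of its control level. The liver isoform PFKL differed by -0.07 and the muscle isoform PFKM by 0.04, with limma adjusted p of 0.084 and 0.26. Their 95% intervals ran from -0.14 to -0.005 and from -0.02 to 0.11. The 3 PFKL probe sets did not share a sign and ran from -0.11 to 0.08.

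Of the remaining enzymes only the enolases, which make phosphoenolpyruvate, passed, and both rose slightly. ENO1, the general isoform, went from 13.59, 13.62 and 13.64 to 13.75, 13.73 and 13.73. That is a rise of 0.12 (SE 0.03, limma adjusted p = 0.013), to 109% of control, and its second probe set also rose by 0.12. Without USF1 control 1 the ENO1 call was lost (0.11, limma adjusted p = 0.052). ENO2, the isoform of neurons and neuroendocrine cells, read 8.70, 8.66 and 8.65 against 8.83, 8.81 and 8.83, a rise of 0.15 (SE 0.03, limma adjusted p = 0.0050). In both enolases the 3 knockdown arrays lay above the 3 controls.

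The enzymes between and after these steps kept close to their control level. Phosphoglycerate kinase PGK1 had 9 probe sets, which differed by -0.01 to 0.09, and none passed (limma over all bright probe sets). Triose phosphate isomerase TPI1 gave -0.03 to -0.005 over 3 probe sets, phosphoglycerate mutase PGAM1 0.03 to 0.10 over 4, and pyruvate kinase PKM -0.09 to -0.02 over 4. Lactate dehydrogenase A, which turns pyruvate into lactate, gave -0.03 to 0.05 over 4 probe sets, and LDHB differed by -0.06. Aldolase ALDOA differed by 0.02, ALDOC by -0.04 and glucose phosphate isomerase GPI by -0.04. GAPDH, which oxidises glyceraldehyde phosphate, gave 14.63, 14.61 and 14.67 without knockdown and 14.65, 14.62 and 14.69 with it, a difference of 0.02. The manufacturer's 3', middle and 5' control probe sets for GAPDH averaged 14.64, 14.75 and 14.68 over the controls and 14.67, 14.78 and 14.69 over the knockdown arrays. The highest reading of any probe set was 15.07 to 15.12 on these arrays, so GAPDH read near the top of the range, and whether this compressed its difference was not tested. Over the 13 enzymes that did not pass, the 95% intervals of the difference stayed between -0.17 and 0.11. Among them HK1, GPI, PFKL, ALDOA, TPI1, GAPDH, PGAM1, PKM and LDHA were read on probe sets of a kind that may match several sequences. PFKM, ALDOC, PGK1 and LDHB were not. Whether this bears on the size of the differences was not tested, and probe sets of this kind need not be independent readings. PKM passed without USF1 control 3 (-0.11, limma adjusted p = 0.042), with a higher dim limit (0.046) and with an intensity trend and robust prior (0.0061). With that prior LDHB passed too (limma adjusted p = 0.010), which made 6 enzymes.

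HK2, LDHA, GAPDH, ANKRD37 and BNIP3 all carry the E-box CACGTG just before a RefSeq start, and their responses to USF1 knockdown differed, which is why these 5 windows are shown. Each is the 250 bases before the start on assembly GRCh38.p14, written 5' to 3' along the gene, with the E-boxes in capitals.
HK2, chr2:74834920-74835169, plus strand: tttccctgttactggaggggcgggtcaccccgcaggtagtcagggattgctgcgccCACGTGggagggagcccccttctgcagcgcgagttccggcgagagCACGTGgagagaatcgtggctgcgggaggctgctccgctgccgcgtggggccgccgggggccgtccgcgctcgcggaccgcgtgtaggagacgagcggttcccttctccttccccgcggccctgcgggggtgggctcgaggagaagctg
LDHA, chr11:18394313-18394562, plus strand: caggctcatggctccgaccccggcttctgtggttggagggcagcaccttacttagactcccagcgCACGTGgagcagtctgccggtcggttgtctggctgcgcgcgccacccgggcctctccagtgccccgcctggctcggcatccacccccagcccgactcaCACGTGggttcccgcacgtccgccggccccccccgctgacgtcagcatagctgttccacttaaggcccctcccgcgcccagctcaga
GAPDH, chr12:6535014-6535263, plus strand: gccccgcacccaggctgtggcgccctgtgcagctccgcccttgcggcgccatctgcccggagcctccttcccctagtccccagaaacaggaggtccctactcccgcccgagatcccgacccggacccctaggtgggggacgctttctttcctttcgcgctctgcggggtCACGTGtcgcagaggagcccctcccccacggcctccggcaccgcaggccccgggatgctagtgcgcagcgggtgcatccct
ANKRD37, chr4:185396591-185396840, plus strand: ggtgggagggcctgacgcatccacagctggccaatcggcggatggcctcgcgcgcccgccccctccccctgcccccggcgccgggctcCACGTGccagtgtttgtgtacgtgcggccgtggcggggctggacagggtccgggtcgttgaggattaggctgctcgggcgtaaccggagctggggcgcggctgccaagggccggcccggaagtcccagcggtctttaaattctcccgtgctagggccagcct
BNIP3, chr10:131981924-131982173, minus strand: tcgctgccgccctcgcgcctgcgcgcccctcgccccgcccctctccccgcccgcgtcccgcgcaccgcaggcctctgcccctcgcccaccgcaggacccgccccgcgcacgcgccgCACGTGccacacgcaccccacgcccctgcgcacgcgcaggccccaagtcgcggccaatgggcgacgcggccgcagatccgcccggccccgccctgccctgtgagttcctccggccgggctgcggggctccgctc
The HK2 window belongs to the downstream of its 2 starts and holds E-boxes whose first base lies at -194 and -149, counted from the start. LDHA holds a pair as well, at -185 and -87 from its upstream start. GAPDH has a single E-box at -81, ANKRD37 at -162 and BNIP3 at -134. HK2 fell by 0.67 and ANKRD37, an ankyrin repeat protein and HIF target, by 0.22, whereas LDHA, GAPDH and BNIP3 differed by 0.02, 0.02 and -0.01 with adjusted p of 0.63, 0.63 and 0.78 (limma).

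Start windows, from 250 bases before to 50 after each RefSeq start, were found for 35 of the 43 genes, and PFKFB2, SLC2A3, SLC16A1, ARNT2, VHL, VEGFA, BNIP3L and NDRG1 were not in the table. The letters CACGTG, which read the same on both strands, occurred in 8 of the 63 windows of these genes (12.7%), beside 7.26% of all 35116 windows. Counted by gene they occurred in 8 of 35 (22.9%), beside 8.78% of all 27305 genes. They lay in windows of HK2, ALDOA, ALDOC, GAPDH, LDHA, PFKFB3, ANKRD37 and BNIP3. All 8 genes were tested: 2 fell, 0 rose and 6 did not pass. Of the 23 tested genes whose windows lacked these letters, 3 fell, 3 rose and 17 did not pass. Over all genes 18.7% fell and 22.0% rose, and 2 falls in 8 genes are close to that share. The HIF core was searched on both strands in its 2 forms. ACGTG, which every CACGTG also contains, occurred in 36.5% of the windows of these genes and in 21.4% of all windows, or in 54.3% of these genes and 24.9% of all. GCGTG occurred in 46.0% and 36.5% of windows, and in 68.6% and 40.6% of genes. These are matches of letters and not measured sites, and genes with several starts add several windows. The map of E-box positions sets the 8 genes beside their differences.

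**Figure D2:**
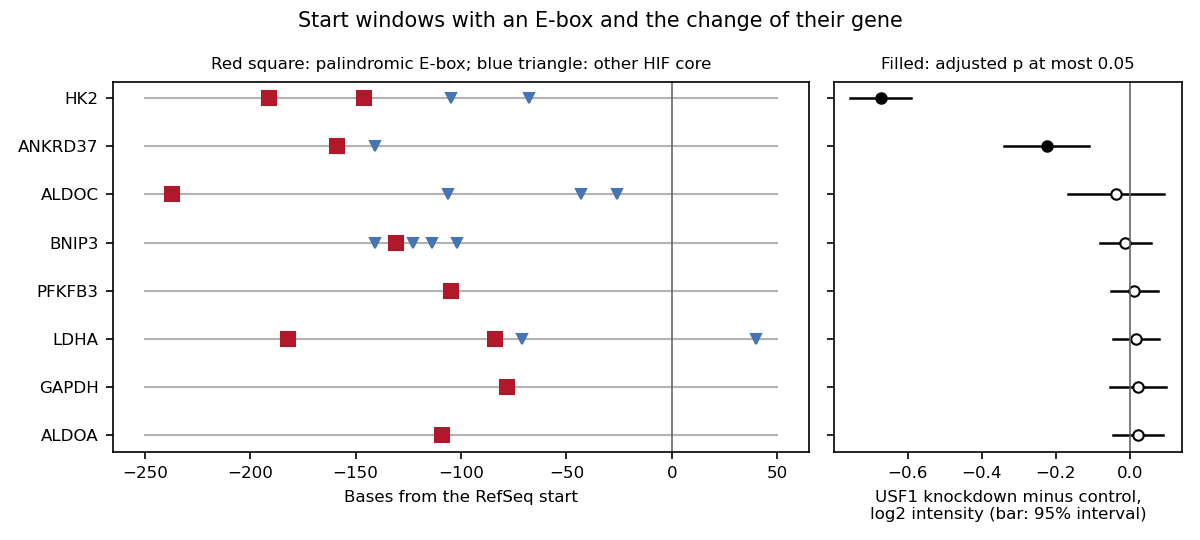
Positions of the palindromic E-box (red squares) and of HIF cores outside it (blue triangles) in the 8 start windows that hold an E-box, in bases from the RefSeq start, beside the USF1 knockdown difference of the gene in log2 intensity with its 95% interval. HK2 (-0.67) and ANKRD37 (-0.22) lie below 0, and the other 6 intervals cross 0.

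Of the 5 measured regulators and transporters of the pathway 2 fell, PDK1 and PFKFB2, and 3 did not pass (limma). The share that passed was 40%, beside 40.7% of all genes. PDK1 phosphorylates pyruvate dehydrogenase and so holds back the oxidation of pyruvate in the mitochondrion. Its readings went from 8.18, 8.16 and 8.09 to 7.85, 7.83 and 7.79, a fall of 0.32 (SE 0.03, limma adjusted p = 6.8e-04) to 80.1% of control without overlap. Its other probe set was dim, at a control mean of 5.31, and differed by 0.04. With the mean of both, PDK1 differed by -0.14 and did not pass (limma adjusted p = 0.11). The PFKFB enzymes set the level of fructose 2,6-bisphosphate, the activator of phosphofructokinase. PFKFB2 gave 6.95, 7.04 and 7.03 on control arrays and a more scattered 6.67, 6.91 and 6.50 on knockdown arrays, a fall of 0.31 (SE 0.10, limma adjusted p = 0.040). This call was lost with no dim limit (0.084) and when any array except USF1 knockdown 2 was left out, with limma adjusted p of 0.065 to 0.11 and differences of -0.34 to -0.22. The other 5 PFKFB2 probe sets were dim and differed the other way, by 0.09 to 0.18. PFKFB3 and PFKFB4 differed by 0.01 and -0.06 and did not pass (limma). The glucose transporter SLC2A1 (GLUT1) read 10.51, 10.51 and 10.54 against 10.58, 10.61 and 10.56. Its knockdown arrays lay above the controls, by 0.06, with a limma adjusted p of 0.11.

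SLC2A3 (GLUT3), a glucose transporter of high affinity, shares all of its 5 probe sets with the closely related SLC2A14. These probe sets lie outside the rule and outside every count above, and they are described because of the size of their change, seen before they were chosen. The brightest went from 9.25, 9.38 and 9.32 to 8.37, 8.41 and 8.27. It fell by 0.96 (SE 0.05, limma adjusted p = 7.4e-05), to 51.3% of control. All 5 fell, with differences of -1.04 to -0.87, in a fit over 29576 bright probe sets of any symbol, of which 37.3% passed. These falls were larger than that of any of the 36 tested genes, and the signals of the 2 transporters cannot be told apart.

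**Figure D3:**
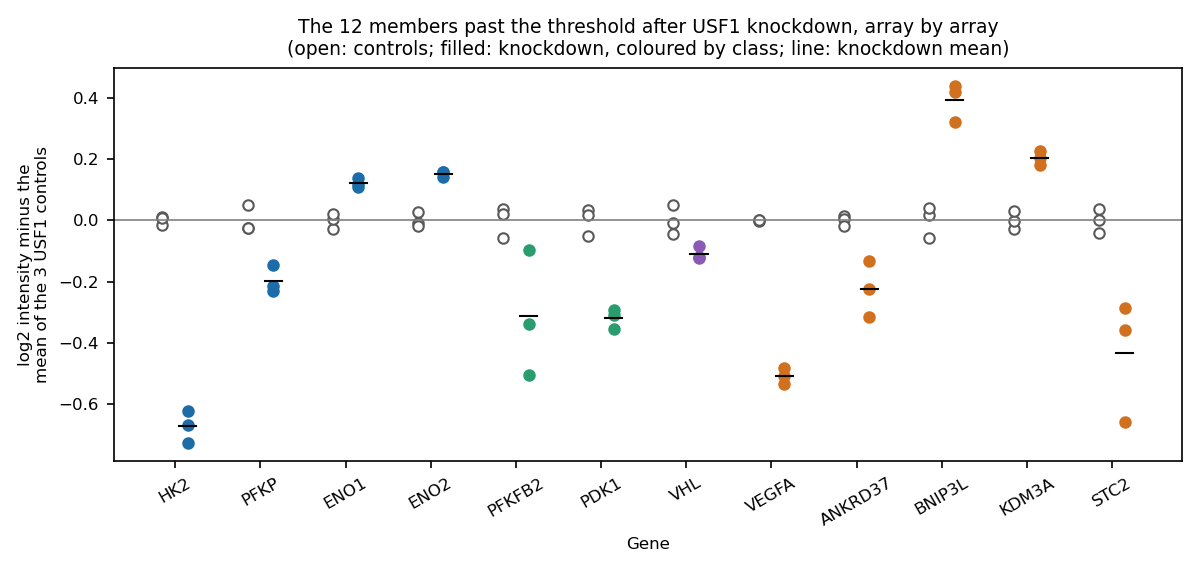
log2 intensity on each USF1 array minus the mean of the 3 controls, for the 12 listed genes past the threshold; open points are controls, filled points knockdown arrays and the line their mean. In each of the 12 genes the knockdown arrays lie on one side of the controls, with the widest spread in PFKFB2 and STC2. Genes picked by a small adjusted p tend to be separated in this way. The arrays of GPI, PFKL, PFKM, TPI1, PGK1, PKM, LDHB, SLC2A1 and HIF1A, which did not pass, were separated too. The share over all genes was not counted.

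Among the genes of oxygen sensing the probe sets of HIF1A did not give the same call. HIF1A is the oxygen-regulated subunit of the main hypoxia factor, and its regulation is mostly at the protein level. Its brightest probe set, which stood for the gene, went from 12.15, 12.20 and 12.16 to 12.23, 12.23 and 12.35, a difference of 0.10 (SE 0.04, limma adjusted p = 0.087). The 7 other probe sets all rose, by 0.20 to 0.30, and were called over all bright probe sets, of which 37.6% passed (limma). With the mean of all 8 probe sets HIF1A rose by 0.23 (limma adjusted p = 4.2e-04). VHL, the subunit that recognises hydroxylated HIF, read 9.32, 9.28 and 9.38 against 9.21, 9.24 and 9.21. It fell by 0.11 (SE 0.03, limma adjusted p = 0.041). That call was lost under 9 of 14 alternatives, among them median centring (0.051), the mean of both probe sets (-0.06, 0.099) and leaving out any array but USF1 control 2 (0.054 to 0.12), and its second probe set differed by -0.02. The prolyl hydroxylase EGLN1 and the HIF2 alpha gene EPAS1 differed by 0.02 and -0.03. ARNT2, a partner of the alpha subunits, and EGLN3, a hypoxia-induced hydroxylase, read under the limit, at control means of 5.10 and 4.07.

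Of the 10 other hypoxia-response genes tested 3 fell, 2 rose and 5 did not pass (limma). The share that passed was 50%, beside 40.7% of all genes. VEGFA, the main angiogenic growth factor of hypoxic tissue, gave 9.91 on each of its 3 control arrays and 9.40, 9.43 and 9.37 after knockdown. It fell by 0.51 (SE 0.03, limma adjusted p = 6.4e-05), to 70.3% of control. Of its 10 probe sets 7 fell, by 0.22 to 0.64, and the other 3 differed by -0.15 to -0.03. Of the 7, 1 had a knockdown mean of 5.54, under the dim limit of 5.63, and was bright only through its controls. STC2, a stanniocalcin induced by low oxygen and by stress of the endoplasmic reticulum, read 7.45, 7.40 and 7.48 against 6.79, 7.08 and 7.16. It fell by 0.43 (SE 0.09, limma adjusted p = 0.0098), with 1 knockdown array lower than the other 2. Its second bright probe set fell by 0.66, to a knockdown mean of 5.630, just under the dim limit of 5.632. That probe set was therefore bright only through its controls. ANKRD37 fell from 6.97, 6.96 and 6.93 to 6.73, 6.82 and 6.64, without overlap (-0.22, SE 0.05, limma adjusted p = 0.010).

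BNIP3L (NIX), a receptor that marks mitochondria for autophagy, rose most. Its readings went from 10.52, 10.45 and 10.54 to 10.83, 10.93 and 10.94, a rise of 0.39 (SE 0.04, limma adjusted p = 7.4e-04) to 131% of control. All 6 of its probe sets rose, by 0.38 to 0.43, though 2 of them held identical values and so count as 1. Its relative BNIP3 differed by -0.01 (SE 0.03, limma adjusted p = 0.78), on readings of 11.49, 11.50 and 11.49 against 11.51, 11.45 and 11.48 that overlapped. KDM3A, a histone demethylase under HIF control, read 10.16, 10.19 and 10.22 against 10.42, 10.37 and 10.40. That is a rise of 0.20 (SE 0.03, limma adjusted p = 0.0022), while its 3 probe sets ran from 0.003 to 0.20 and 2 of them passed. The vasodilator peptide gene ADM, the oxidase of the endoplasmic reticulum ERO1A, the stress gene NDRG1 and the carbonic anhydrase CA12 differed by -0.04, -0.01, -0.15 and 0.11 and did not pass (limma). MXRA5 read under the limit, at a control mean of 3.18.

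The glycolytic enzymes can be set beside the other listed genes by their counts, and the difference between these lists was not tested. Of 17 enzymes 4 passed, or 23.5%, with a median size of difference of 0.04. Of the 19 other tested genes 8 passed, or 42.1%, with a median size of 0.11. For all genes the shares and sizes were 40.7% and 0.10. Among the hypoxia-response genes 5 of 10 passed, 2 upward and 3 downward, with a median size of 0.17. The median SE was 0.03 for the enzymes and 0.04 for all genes. ALDOA, TPI1, PGK1, PGAM1, ENO1, LDHA, LDHB and GAPDH were bright, with control means of 13.0 to 14.6. Genes of like brightness were not set beside them here, and whether brightness bears on the size of the differences was not tested.

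**Figure D4:**
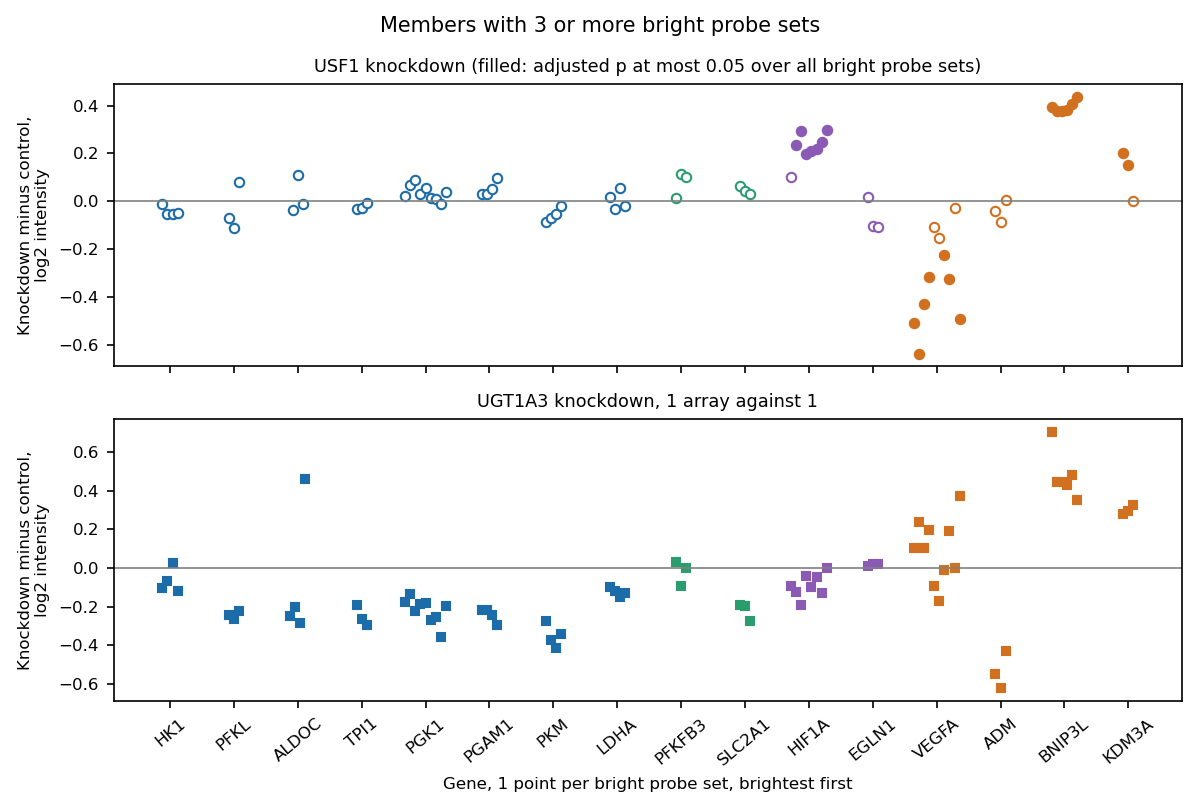
Knockdown minus control in log2 intensity for every bright probe set of the genes with at least 3 of them, above after USF1 knockdown and below in the UGT1A3 pair. The 8 HIF1A points lie at 0.10 to 0.30 above and at -0.19 to 0.003 below, and the BNIP3L points lie above 0 in both panels.

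Other genes of the 2 pathways passed at shares of 37.5% and 44.4%, beside the 40.7% of all genes. Their lists were drawn up by function but with earlier results of these data known. Of 16 measured genes of sugar phosphate and pyruvate metabolism 4 rose, 2 fell and 10 did not pass (limma). PDHB and PDHA1, subunits of pyruvate dehydrogenase, moved in opposite directions, by 0.34 and -0.19. The phosphoglucomutases PGM1 and PGM2 differed by 0.20 and -0.21, and the transporter SLC2A6 rose by 0.47. Of 27 other HIF pathway and target genes 6 rose, 6 fell and 15 did not pass. DDIT4, an inhibitor of mTOR signalling induced by hypoxia and stress, fell by 0.88 (SE 0.06, limma adjusted p = 1.4e-04), the transferrin receptor TFRC by 0.31, and ANGPTL4, an inhibitor of lipoprotein lipase, by 0.31. The VHL partner ELOC fell by 0.25, and the collagen lysyl hydroxylase PLOD1 rose by 0.29. Beyond the genes given from this list by smallest adjusted p, the VHL partner ELOB rose by 0.20 (limma adjusted p = 0.0035). CUL2 and RBX1, of the same complex, did not pass (limma).

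In the UGT1A3 pair nearly all glycolytic enzymes read slightly lower in the knockdown array. With 1 array against 1 there was no replicate check and no p-value. The knockdown array was lower for 16 of 17 enzymes, with a median difference of -0.12, beside 46.0% lower and a median of 0.02 for all 11620 genes kept. The exception was PFKM at 0.06. Quantile normalization and median centring left the same 16 lower, with medians of -0.11 and -0.15. Of the 225 genes with a mean reading of 12 to 15 in this pair 43.6% were lower, with a median of 0.02, and these included 8 enzymes, of which 8 were lower. Most of these differences were small, and of the probe sets that stood for the genes only that of HK2 was at least 0.3 lower, beside 9.31% of all genes. With quantile normalization or median centring 2 enzymes were. HK2 went from 7.69 to 7.32, a difference of -0.37 or 77.3% of control, and its second probe set differed by -0.74.

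PKM went from 10.92 to 10.64. Its 4 bright probe sets differed by -0.42 to -0.27, and 3 of them were at least 0.3 lower. The 9 PGK1 probe sets differed by -0.35 to -0.14, the 4 of PGAM1 by -0.29 to -0.22 and the 4 of LDHA by -0.15 to -0.10. Exceptions among the probe sets were 1 of ALDOC, higher by 0.46, and 1 of HK1, higher by 0.03. The GAPDH probe set read 13.89 and 13.83, and its 3', middle and 5' control probe sets went from 13.94, 14.05 and 14.08 to 13.87, 14.00 and 14.01. SLC2A1 was lower too, at 9.04 and 8.85.

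The regulators, sensors and other hypoxia-response genes lay mostly higher in the UGT1A3 knockdown array, 14 of 18 with a median of 0.07, beside 52.1% of all genes and their median of 0.02, though median centring turned the sign of EGLN1, which was higher by 0.01. Of all 35 listed genes kept, 4 were at least 0.3 higher and 2 at least 0.3 lower, beside 12.7% and 9.31% of all genes. Neither was thus more frequent among the listed genes than over all genes. EPAS1 went from 5.59 to 6.06, a difference of 0.46, on its only bright probe set. BNIP3L read 9.37 and 9.82, a difference of 0.45, and all 6 of its probe sets were higher, by 0.35 to 0.70. PFKFB4 read 5.84 and 6.28, while its second bright probe set differed by -0.29. STC2 read 6.42 and 6.79, and its second bright probe set differed by -0.02. KDM3A read 8.82 and 9.11, with 0.28 to 0.33 over 3 probe sets. ADM read 7.92 and 7.38, and its 3 probe sets were lower by 0.43 to 0.62. CA12, NDRG1, EGLN3 and MXRA5 were dim in this pair. The 5 probe sets shared by SLC2A3 and SLC2A14 read higher by 0.81 to 1.47, the brightest at 7.67 and 9.14.

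The knockdowns had separate controls, so the values of both sets can be read beside each other, though no test of the difference between them was possible. Of the 12 genes that passed after USF1 knockdown, 4 had the same sign in the UGT1A3 pair, or 33.3%. Over all 4596 genes called after USF1 knockdown and kept in the pair 60.5% had the same sign. The 4 genes were HK2 (-0.67 and -0.37), PFKP (-0.20 and -0.11), BNIP3L (0.39 and 0.45) and KDM3A (0.20 and 0.28). The other 8 had the opposite sign, with STC2 at -0.43 and 0.37, ENO1 at 0.12 and -0.25, and VEGFA at -0.51 and 0.10. In the pair PDK1, ANKRD37, PFKFB2, ENO2 and VHL differed by only 0.07, 0.07, 0.08, -0.09 and 0.12. These sizes and those of VEGFA and PFKP were under the median size for all genes in the pair, 0.16, so such signs rest on small differences between single arrays. The sign of VEGFA in the pair was not shared by its 10 probe sets, which ran from -0.17 to 0.37. The transporter probe sets shared by SLC2A3 and SLC2A14 also ran in opposite directions. HIF1A differed by 0.10 to 0.30 over its probe sets after USF1 knockdown and by -0.19 to 0.003 in the UGT1A3 pair.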

How the data were processed

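Total RNA of H1299 cells was labelled with biotin and read on 8 one-colour Affymetrix arrays. Intensities per probe set were deposited by the authors on a log2 scale, as judged from the range of the values. Per the submitters' processing notes MAS5 was among the tools, with its use unspecified. The scaling of arrays is not given in the sources at hand. Of 49395 probe sets 102 controls were left out, and 44988 carried 1 symbol in the platform annotation, 1832 several and 2473 none. Current symbols were looked up by Entrez number for 44961 of these. A gene was its probe set of highest mean, and was called dim where that mean lay in the lowest 40 percent of probe set means. The probe set with the highest mean could differ between the sets. Because this limit applies to the mean of a set, the genes that passed it are not all listed genes. Among the probe sets that stood for the 39 genes, 10 had the suffix _x_at and 11 the suffix _s_at, given to those that may match several sequences. In the UGT1A3 pair 223 kept genes read the same on both arrays.

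The USF1 set was fitted in R 4.3.3 by lmFit and eBayes of limma 3.58.1, knockdown minus control, two-sided. Benjamini-Hochberg adjusted p-values covered all genes tested, with a threshold of 0.05. Intervals are 95% moderated intervals. The fit was tested on simulated data. Replicate numbers were checked for pairing: the deviations of same-numbered arrays correlated at -0.10, 0.20 and 0.09, so no block was used. Up to 20 listed genes with the smallest adjusted p are given array by array, with the 8 genes of largest difference in the UGT1A3 pair and up to 5 genes from each list of other pathway genes. The genes, lists and tests were chosen with earlier results of these data known. Promoter windows are from RefSeq, GRCh38.p14. Precision is limited by the number of arrays.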

Additional observations from a re-analysis of the deposited data

How the results depend on the processing

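The count of 12 genes past the threshold after USF1 knockdown ranged from 9 to 11 when each array was left out in turn (3 to 4 upward, 6 to 7 downward, 3 to 5 enzymes and 6 to 7 others), and was 15 (6 of them enzymes) with an intensity trend and robust prior and 9 when a gene's probe sets were averaged. With that mean 4 genes fell in place of 8, and 5 genes outside the enzymes passed in place of 8; PDK1 and VHL lost their calls and PFKFB2 and ANKRD37 became dim. With the replicate block 11 passed, of which 4 rose and 7 fell, and VHL was the gene that lost its call. HK2, PFKP, ENO2, VEGFA, BNIP3L and KDM3A kept their calls under all 14 alternatives, with ranges of -0.70 to -0.56, -0.22 to -0.17, 0.14 to 0.17, -0.52 to -0.32, 0.37 to 0.43 and 0.12 to 0.22, and no call changed direction. STC2 and ANKRD37 kept theirs under the 13 and 12 alternatives that measured them.

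In the UGT1A3 pair the genes at least 0.3 lower numbered 4 in place of 2 with no dim limit, which brings in dim genes. Those at least 0.3 higher numbered 2 in place of 4 with the limit at the 60th percentile, which leaves fewer genes, and 2 when probe sets were averaged. With every probe set on its own 11 genes had a probe set past 0.3, 7 upward and 4 downward. The pair has no replicate check, UGT1A3 itself could not be verified, and dim probe sets limit what can be said of EGLN3, ARNT2, CA12, NDRG1 and MXRA5.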

Other observations

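The list of 27 measured other HIF pathway and target genes is given here for the UGT1A3 pair. In that pair, with 1 array against 1 and no replicate check, 8 of the 27 were at least 0.3 higher in the knockdown array and 3 at least 0.3 lower, beside 12.7% and 9.31% of all genes. ANGPTL4 read 8.28 in the control and was higher by 1.13, whereas it fell by 0.31 after USF1 knockdown. DDIT4 was higher by 0.44 and had fallen by 0.88. TMEM45A, the collagen cross-linking enzyme LOX and the clock repressor BHLHE41 were higher by 0.88, 0.83 and 0.69 and did not pass after USF1 knockdown (limma). HIF1AN, the asparagine hydroxylase that restrains HIF activity, was lower by 0.71. These 6 genes were picked after the values were seen, and not by size alone. P4HA2 was left out, though it was higher by 0.48, more than DDIT4, and did not pass after USF1 knockdown (limma).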
